A study of Mus musculus with 6 samples.

Results

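Secreted matrix glycoproteins were followed in RAW264.7 cells, a mouse monocyte-macrophage line used as a source of osteoclast-like cells, through 8 genes: Ecm1, Spp1, Thbs1, Fn1, Tgfbi, Sparc, Lgals3 and Gpnmb. Every probe set that the array annotation assigns to exactly 1 of these genes was taken, which gave 15 probe sets for 7 genes among 45037 probe sets tested. No probe set carries the name Spp1 in the annotation used, so osteopontin is not analysed here. The genes were selected on the difference between low and normal sodium on these arrays, in that earlier values of it were known when the list was drawn up, and all differences of the 8 genes between the media are therefore given as descriptions.

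Total RNA was measured on Affymetrix arrays, 3 from RAW264.7 cultures in low sodium (120 mmol/l) and 3 from cultures in normal sodium (137 mmol/l), after 24 hours. Mannitol kept the low-sodium medium at the osmolality of 290 mOsm/l. M-CSF at 10 ng/ml and RANKL, the cytokine that drives osteoclast formation, at 30 ng/ml are named in the protocol in a wording that does not settle whether the normal-sodium cultures received them too. The labels speak of 4 biological replicates per medium, of which 3 are analysed here, and all come from 1 cell line.

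Matricellular proteins such as thrombospondin, osteopontin and SPARC sit in the extracellular matrix without building its scaffold, and they signal to cells through integrins, CD44 and scavenger receptors. Osteoclasts attach to bone through integrins that recognise matrix glycoproteins, osteopontin among them, and resorb the matrix beneath the attachment. Fibroblasts and osteoblasts are the classical producers of fibronectin and SPARC, whereas macrophages are known for galectin-3 and GPNMB. The 8 products are not all glycoproteins of the matrix in the strict sense, since GPNMB is a membrane glycoprotein whose outer part is shed and galectin-3 is a lectin that leaves cells without a signal peptide.

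The promoter windows of the 3 genes with the clearest signal are shown, because Ecm1 and Gpnmb were higher on all low-sodium arrays than on any normal-sodium array and Lgals3 differed little. RefSeq sequence of assembly GRCm38.p6 was available for 6 of the 8 genes, as 7 windows, the additional one belonging to a gene not shown. Each window runs 5′ to 3′ on the gene's strand from 250 bases before the annotated start to 50 bases after it. The Ecm1 window is chr3:95739520-95739819 on the minus strand, that of Gpnmb is chr6:49036268-49036567 on the plus strand, and that of Lgals3 is chr14:47373610-47373909 on the plus strand. Capitals mark matches to the motifs searched.
Ecm1: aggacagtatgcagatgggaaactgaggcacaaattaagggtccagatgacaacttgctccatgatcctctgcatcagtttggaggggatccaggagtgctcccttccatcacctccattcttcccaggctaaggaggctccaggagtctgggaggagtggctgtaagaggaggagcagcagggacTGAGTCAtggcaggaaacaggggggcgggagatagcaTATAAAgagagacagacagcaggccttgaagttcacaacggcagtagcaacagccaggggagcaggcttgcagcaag
Gpnmb: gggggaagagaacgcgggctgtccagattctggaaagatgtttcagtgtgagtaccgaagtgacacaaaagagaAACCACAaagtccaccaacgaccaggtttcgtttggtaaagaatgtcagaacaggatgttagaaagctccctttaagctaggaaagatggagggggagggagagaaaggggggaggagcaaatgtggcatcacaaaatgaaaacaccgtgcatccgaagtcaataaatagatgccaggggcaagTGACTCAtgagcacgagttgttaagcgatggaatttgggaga
Lgals3: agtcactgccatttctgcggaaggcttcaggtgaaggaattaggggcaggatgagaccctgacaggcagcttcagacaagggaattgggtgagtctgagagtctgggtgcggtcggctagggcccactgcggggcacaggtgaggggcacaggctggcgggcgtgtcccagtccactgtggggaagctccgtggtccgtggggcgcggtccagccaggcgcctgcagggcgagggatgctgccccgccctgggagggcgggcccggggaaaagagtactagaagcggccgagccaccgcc

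The 6 motifs searched on both strands were AP-1 (TGACTCA), the MITF M-box (TCATGTG), the E-box CACGTG, RUNX (AACCACA), PU.1 (GAGGAAGT) and the TATA box (TATAAA), all of factors or elements known in macrophage and osteoclast genes. Ecm1 held an AP-1 match at positions -64 to -58 and a TATA match at -27 to -22 from the start. Gpnmb held an AP-1 match at positions 9 to 15 after the start and a RUNX match at -176 to -170. Lgals3 held 0 matches. Of the windows not shown, a window of Spp1 held RUNX, PU.1 and TATA matches, and those of Tgfbi and Sparc held none. No contrast between the windows was tested. Among all 32851 promoter windows of the table, 5.20% held AP-1, 3.77% the M-box, 7.15% the E-box, 5.27% RUNX, 3.20% PU.1 and 13.6% TATA. No matches overlapped in these windows, and positions count from 1 at the start base with no 0. A match describes letters in these windows and was not tested for binding, and no source used here gives the genome build behind the array annotation.

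Signal differed widely between the 7 measured genes. A probe set was called near background when its mean log2 intensity over the 6 arrays lay under 6.19 (an intensity of 72.2), the 95th percentile of 104 probe sets of sensory receptor and beta-defensin genes, families used mainly in other tissues. By this limit Ecm1, Gpnmb, Lgals3 and Fn1 had at least 1 probe set above background, and Thbs1, Tgfbi and Sparc were near background in all of theirs. Of the 15 probe sets 5 lay above the limit and 10 below. The replicate 3 arrays of both media stood apart from the other 4 arrays in labelling controls: the spiked dap transcript gave a 3′ minus 5′ log2 difference of 2.94 in low sodium and 3.07 in normal sodium there, against 0.96 to 1.06 on the others. All differences are therefore also given within each replicate number.

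Ecm1 encodes extracellular matrix protein 1, a secreted glycoprotein known from skin and cartilage. Its 1 probe set (1448613_at) read 1547, 1423 and 1497 in low sodium (replicates 1 to 3), against 624, 609 and 630 in normal sodium. All 3 low-sodium arrays lay above all 3 normal-sodium arrays, and the arrays of each medium lay close together. Its intensity averaged 1489 ± 62.4 in low sodium and 621 ± 10.6 in normal sodium (SD, n = 3 each). On the log2 scale the difference was 1.26 ± 0.19 (SE), or 2.39-fold. The difference was 1.31, 1.22 and 1.25 within replicates 1, 2 and 3, so the replicate 3 pair, which differed in its labelling controls, gave nearly the same value as the other pairs. In RNA from whole cultures, a change in the share of cells that express a gene and a change in RNA per cell cannot be told apart.

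**Figure D1:**
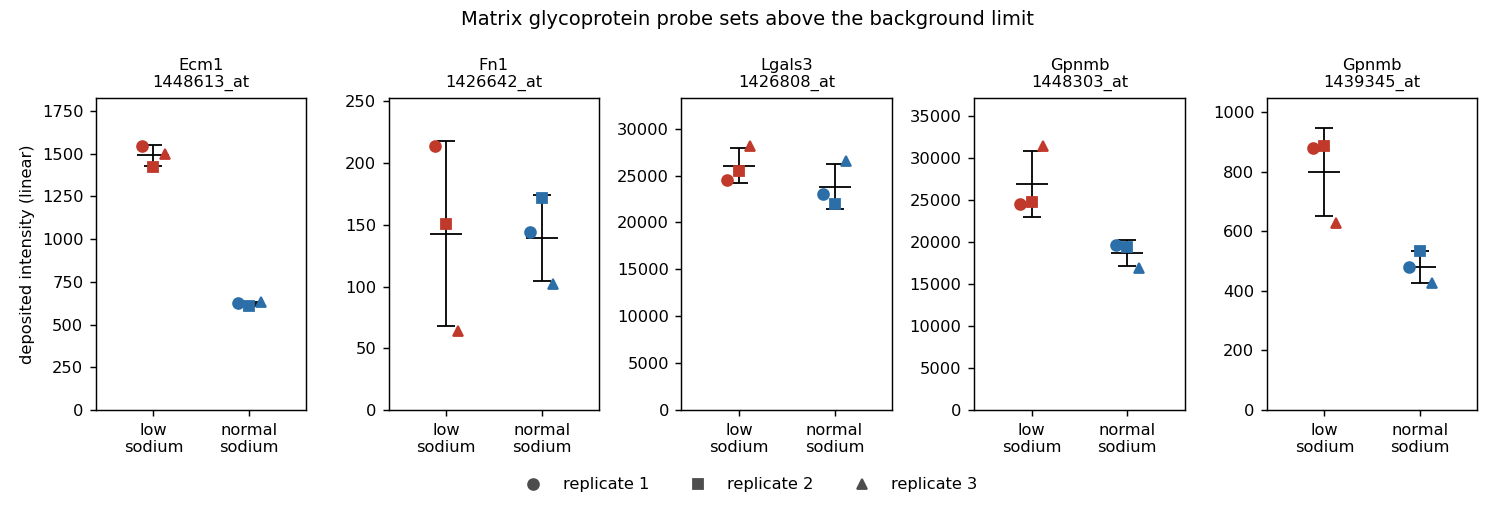
Deposited intensity (linear axis from 0) of the 5 member probe sets above the background limit, low sodium (red) left of normal sodium (blue), with symbols for the replicate numbers and bars for mean ± SD (n = 3). The media are separate for Ecm1 and both Gpnmb probe sets and overlap for Fn1 and Lgals3.

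Gpnmb, also called osteoactivin, encodes a membrane glycoprotein with a shed outer part and is known to be made during osteoclast formation. Probe set 1448303_at read 24469, 24771 and 31481 in low sodium, against 19675, 19435 and 16929 in normal sodium. The second probe set, 1439345_at, read 880, 889 and 629 in low sodium, against 482, 535 and 425 in normal sodium. On both probe sets every low-sodium array lay above every normal-sodium array. The log2 difference was 0.52 ± 0.22 (1.43-fold) for 1448303_at and 0.72 ± 0.24 (1.65-fold) for 1439345_at. The probe sets parted in replicate 3: 1448303_at differed by 0.31, 0.35 and 0.89 within replicates 1, 2 and 3, and 1439345_at by 0.87, 0.73 and 0.56. Probe set 1448303_at thus had its widest gap in replicate 3, where 1439345_at had its narrowest.

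Lgals3 encodes galectin-3, a lectin that binds galactose-bearing glycans and is abundant in macrophages. Its probe set 1426808_at read 24559, 25450 and 28206 in low sodium, against 23041, 21929 and 26521 in normal sodium. The media overlapped, and the replicate 3 array was the highest of each medium. The log2 difference was 0.13 ± 0.21, with 0.09, 0.21 and 0.09 within the replicate numbers. The highest intensities on the 6 arrays lay between 36222 and 41458, and whether the response of the array flattens at the intensities of Lgals3 and Gpnmb 1448303_at was not tested.

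Fn1 encodes fibronectin, the fibril-forming glycoprotein that cells bind through integrins. Probe set 1426642_at read 214, 150 and 64.2 in low sodium, against 145, 171 and 102 in normal sodium, a log2 difference of -0.09 ± 0.50. The media overlapped, and the low-sodium replicate 3 array lay under the background limit. Within the replicate numbers the sign was not shared, with 0.56, -0.19 and -0.66. The other Fn1 probe set, 1437218_at, was near background, with 14.0 to 30.1 in low sodium and 15.9 to 29.6 in normal sodium.

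**Figure D2:**
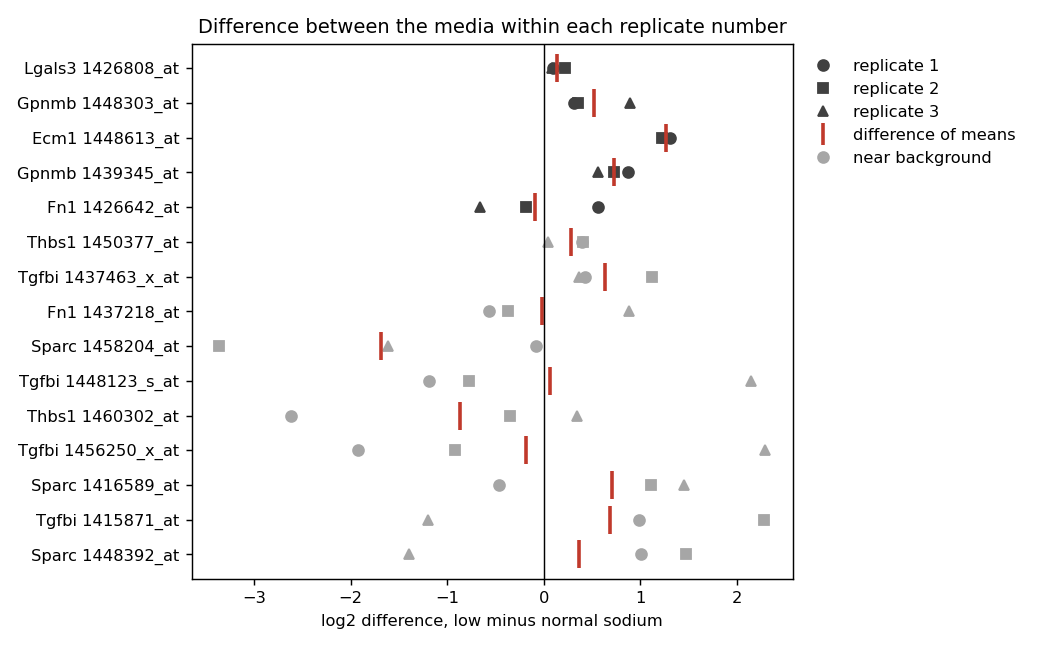
Difference in log2(intensity + 1), low minus normal sodium, within each replicate number (symbols) and of the group means (red bar) for all 15 probe sets, ordered by mean signal from the top, with near-background probe sets in light grey. Ecm1 lies between 1.22 and 1.31 in the 3 pairs, and most near-background probe sets have pairs on both sides of 0.

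Thbs1 encodes thrombospondin-1, a matricellular protein that can activate latent TGF-beta. Its stronger probe set, 1450377_at, read 59.1, 63.9 and 42.2 in low sodium, against 44.6, 48.2 and 40.9 in normal sodium. The low-sodium replicate 3 array lay among the normal-sodium values. The other, 1460302_at, read 1.81, 21.0 and 28.0 in low sodium, against 16.2, 26.9 and 21.8 in normal sodium. All 12 of these values lay under the limit.

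Tgfbi encodes a TGF-beta-induced adhesion protein that links collagen to integrins. Its 4 probe sets gave between 3.81 and 49.5 in low sodium and between 0.99 and 47.0 in normal sodium. Probe set 1437463_x_at, the strongest by mean, read 36.0, 49.5 and 48.1 in low sodium, against 26.4, 22.2 and 37.2 in normal sodium. The media overlapped there, and all 3 replicate pairs were higher in low sodium by 0.36 to 1.12. The other 3 changed sign between replicate pairs, as in 1448123_s_at with -1.19, -0.77 and 2.14, so no shared direction was measured for Tgfbi.

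Sparc encodes osteonectin, a collagen- and calcium-binding protein made in large amounts by osteoblasts. Probe sets 1416589_at and 1448392_at lay between 1.74 and 15.7 in low sodium and between 1.79 and 13.2 in normal sodium. Probe set 1458204_at was the most scattered of the 15, at 71.1, 5.03 and 3.02 in low sodium, against 75.2, 60.9 and 11.3 in normal sodium. Its normal-sodium replicate 1 array was the only reading of a near-background probe set above the limit. Its log2 difference of -1.68 ± 1.30 has the opposite sign to those of the other Sparc probe sets, 0.70 ± 0.45 and 0.36 ± 0.56.

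**Figure D3:**
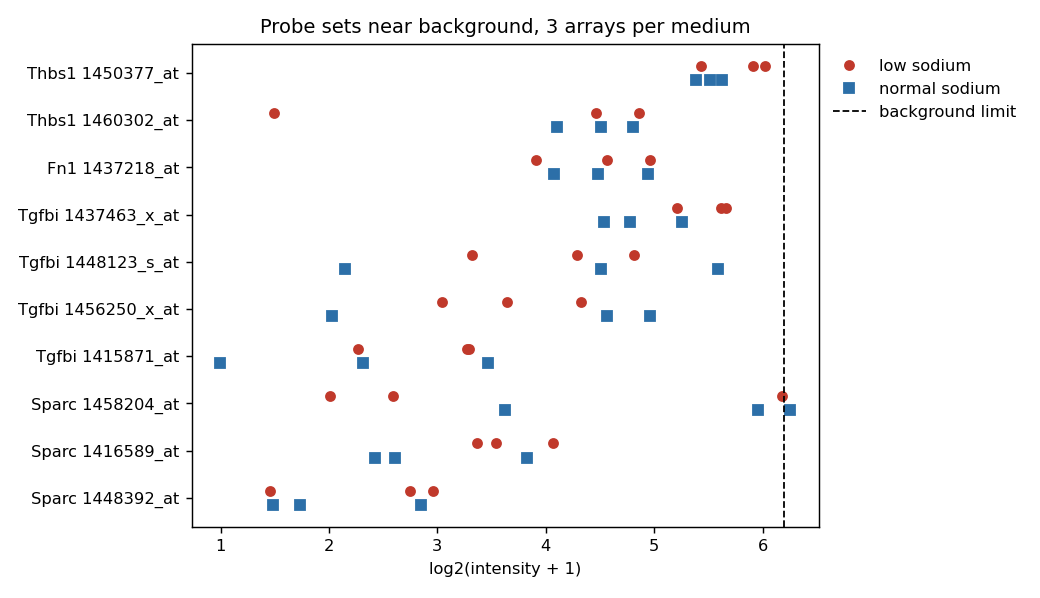
Log2(intensity + 1) of the 10 near-background probe sets on each array, low sodium (red circles) drawn above normal sodium (blue squares), with the background limit of 6.19 as a dashed line. The media overlap on every probe set, and 1 reading, of Sparc 1458204_at, lies above the limit.

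Fitted with limma across all 45037 probe sets, 0 of the 15 member probe sets passed an adjusted p of 0.05, as did 0% of all probe sets (Benjamini-Hochberg). At an unadjusted p under 0.05 there were 2 of the 15, Ecm1 and Gpnmb 1439345_at, where 6.37% of all probe sets were. Low sodium lay wholly above normal sodium in 3 of the 15, Ecm1 and both Gpnmb probe sets, and in 6.97% of all. It lay wholly below in 0 of the 15 and in 7.88% of all. In a fit with a term for replicate 3 and a trended prior, which gave the most calls in earlier work on these arrays, the same 3 passed, beside 4.09% of all probe sets. Since the genes were chosen with this contrast known, nothing is read from these counts.

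The contrast of replicate 3 with replicates 1 and 2 was not used to choose the genes. With sodium in the model, limma called 0 of the 15 member probe sets and 0% of all probe sets for it (adjusted p under 0.05), and with a trended prior 0 of the 15 and 15.1% of all. Ecm1 differed by 0.02 ± 0.14 (SE) on the log2 scale between replicate 3 and the other arrays. Fn1 1426642_at differed by -1.05 ± 0.29 (adjusted p = 0.144 in the limma fit, and 0.0504 with a trended prior). Its replicate 3 array was the lowest of each medium, at 64.2 in low sodium and 102 in normal sodium, and it was the 1 member probe set with an unadjusted p under 0.05 here, where 24.4% of all probe sets had one. Lgals3 differed by 0.21 ± 0.13, Gpnmb 1448303_at by 0.07 ± 0.19 and Gpnmb 1439345_at by -0.37 ± 0.15.

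Genes whose pattern over the 6 arrays was most like that of Ecm1 were Zfand2a, Rgs2 and Cpeb4, out of 19181 candidate probe sets. Likeness was the root mean square difference between centred log2 values, which was 0.11 for Zfand2a and 0.14 for both Rgs2 and Cpeb4. Zfand2a, a stress-inducible zinc finger gene, was 2.26-fold higher in low sodium, Rgs2, a regulator of G-protein signalling, 2.51-fold, and Cpeb4, which binds mRNA to control its translation, 2.32-fold. For Gpnmb 1448303_at the nearest were Rrm2b, a ribonucleotide reductase subunit gene, at 0.04, and Rab40c and Gstm4 at 0.05. These 3 were 1.44-fold, 1.45-fold and 1.36-fold higher in low sodium, and like Gpnmb 1448303_at they differed most in replicate 3, by 0.81, 0.94 and 0.80 on the log2 scale. As the genes were picked for likeness to Ecm1 or Gpnmb over the same 6 arrays, these fold changes and replicate gaps follow from the choice.

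Receptors and binding partners of the 8 products were measured through 13 genes, with 1 probe set per gene, the one with the highest mean. This list and those below were drawn up with earlier results of these data known, so nothing is read from the counts called in them. Of these, 11 lay above the background limit, 10 with a higher mean in low sodium and 1 with a lower one. Over all genes represented in the same way, 4837 of 10290 above the limit had a higher mean in low sodium. The median log2 difference over the 13 was 0.26, where it was -0.01 over 18193 genes represented in the same way. Within replicates 1 and 2 this median was 0.31, and within replicate 3 it was 0.33, but it was 0.16 without the low-sodium replicate 2 array. By the limma test 0 of the 13 passed, as did 0% of these genes, and 2 of the 13 had an unadjusted p under 0.05, against 6.39% of genes. With the replicate 3 term and trended prior 3 were higher in low sodium (background 3.09% of genes) and 1 was lower (background 2.92%), namely Cd36, Itga5 and Cd44, the last chosen after its values were seen, and Itga4. Cd44 differed by 0.83 ± 0.58, with overlap. Most genes called by this fit lay above the limit, 1082 of the 10290 there, in either direction.

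Itga4, the integrin alpha 4 chain that binds fibronectin and osteopontin, read 4490, 4645 and 4456 in low sodium, against 8359, 8401 and 8201 in normal sodium. Its log2 difference was -0.88 ± 0.19 with no overlap, and its 3 other probe sets above the limit had the same sign. Itga5, the alpha chain of the classical fibronectin receptor, went the other way at 0.97 ± 0.40, with 1311, 1398 and 732 in low sodium, against 769, 606 and 380 in normal sodium. In Itga5 the media overlapped through the low-sodium replicate 3 array, although each replicate pair was higher in low sodium. Cd36, a scavenger receptor that binds thrombospondin-1, differed by 0.77 ± 0.26 and Stab1, which takes up SPARC, by 0.69 ± 0.28, both without overlap. Itgb3, the integrin beta 3 chain of the osteoclast receptor for osteopontin, was near background in both media, at 6.96 to 15.7 in low sodium and 8.47 to 20.7 in normal sodium.

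Relatives of the 8 products were mostly near background, 18 of 23 genes. Near background were the other thrombospondins Thbs2, Thbs3 and Thbs4, the mineralised-tissue genes Ibsp, Dmp1, Mepe and Dspp, and the periostin gene Postn. The 5 above the limit were all galectins, each with a higher mean in low sodium, where 4837 of 10290 genes above it had one. Lgals9 differed by 0.77 ± 0.31, at 1601, 1694 and 1767 in low sodium, against 738, 887 and 1481 in normal sodium, without overlap. Lgals8 differed by 0.53 ± 0.33, Lgals1 by 0.34 ± 0.25 and Lgals2 by 0.37 ± 0.38, all with overlap. The sign changed between replicate pairs in Lgals2 (-0.11, 0.45 and 0.77) and in Lgals12 (0.28, 0.68 and -0.48). The median over the 23 genes was 0.34, with 0.27 in replicates 1 and 2 and -0.0048 in replicate 3, and it was 0.0259 without the normal-sodium replicate 3 array and 0.0875 without the low-sodium replicate 2 array. Of the 23, 0 passed the limma test and 0 had an unadjusted p under 0.05, against 6.39% of genes. With the replicate 3 term and trended prior 3 passed, Lgals9, Lgals8 and Lgals1, all higher in low sodium, where 3.09% of genes were. Among genes above the limit 1082 of 10290 passed this fit, in either direction.

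Other secreted matrix glycoproteins were measured through 28 of 32 listed genes, 20 of them near background, among them tenascin C (Tnc), vitronectin (Vtn) and versican (Vcan). Of the 8 above the limit, 4 had a higher and 4 a lower mean in low sodium, where 4837 of 10290 genes above it had a higher one. The median over all 28 was 0.06, with -0.0071 in replicates 1 and 2 and 0.39 in replicate 3, and between -0.06 and 0.22 without 1 array at a time. Srgn, the proteoglycan core of macrophage granules, differed by 0.21 ± 0.19 and the laminin gene Lamc1 by 0.79 ± 0.70. Agrn, the agrin gene, differed by -0.38 ± 0.34 and Ltbp3, a carrier of latent TGF-beta, by -0.24 ± 0.22. The limma test passed 0 of the 28, with 2 at an unadjusted p under 0.05 (background 6.39% of genes), Fbln5 and Fbn2, both near background and named after their values were seen. In the fit with the replicate 3 term and trended prior 0 passed (background 3.09% of genes higher and 2.92% lower). Of the 1094 genes that this fit called, 1082 lay above the limit.

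Enzymes that cut or crosslink the matrix were measured through 19 of 20 listed genes, of which 13 lay above the limit. In 11 of them the means of both media lay above it, and all 11 had a higher mean in low sodium. Of all genes whose mean over the 6 arrays lay above the limit, 4837 of 10290 had a higher mean in low sodium. Mmp14 and Mmp19 passed the limit only through their low-sodium arrays (normal-sodium means under 6.19), so the limit itself favoured a higher mean in low sodium for them. The median over the 19 was 0.64, with 0.44 in replicates 1 and 2 and 0.36 in replicate 3. By the limma test 0 of the 19 passed, as did 0% of genes, and 4 had an unadjusted p under 0.05, against 6.39% of genes. A total of 6 passed with the replicate 3 term and trended prior, all higher in low sodium, where 3.09% of genes were. They were Plau, Tgm2, Loxl3, Ctsk, Mmp9 and Adam17. Among genes above the limit 1082 of 10290 passed this fit, in either direction. As for the other lists, nothing is read from these counts. Plau, the urokinase gene, read 12692, 11912 and 14262 in low sodium, against 2799, 2609 and 962 in normal sodium, a log2 difference of 2.75 ± 0.46. Tgm2, the transglutaminase that crosslinks fibronectin among other proteins, differed by 1.73 ± 0.31 and Loxl3, a lysyl oxidase gene, by 1.75 ± 0.52, both without overlap. Adam17 differed by 0.55 ± 0.29, also without overlap. Adamts1, a protease of proteoglycans, differed by 0.64 ± 0.23 and did not pass the fit with the replicate 3 term and trended prior. Plau, Tgm2 and Loxl3 differed most in replicate 3, by 3.89, 2.42 and 2.80, against 1.07 to 2.19 in the other pairs.

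**Figure D4:**
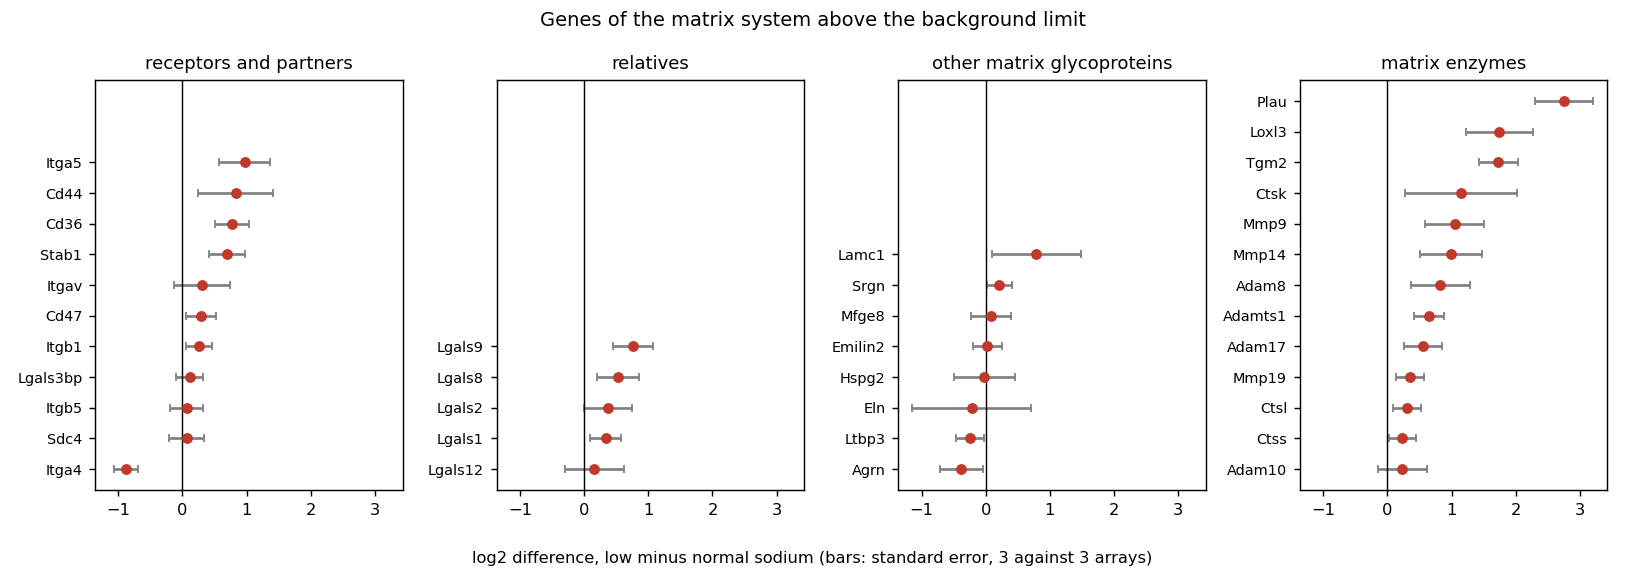
Log2 difference, low minus normal sodium, with its limma standard error (n = 3 against 3) for the genes above the background limit in 4 lists: receptors and partners, relatives, other matrix glycoproteins and matrix enzymes. The 5 relatives and the matrix enzymes lie to the right of 0, Mmp14 and Mmp19 being above the limit only through low sodium, and Itga4 is the 1 receptor gene to the left.

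Cell identity was read from marker lists. They too were drawn up with earlier results of these data known, so their counts are descriptions. All 10 macrophage markers lay above the limit, with a summed intensity of 115173 to 125003 in low sodium and 108909 to 115428 in normal sodium. Adgre1, a surface receptor gene of macrophages, differed by 0.96 ± 0.31 without overlap. It was the 1 macrophage marker that passed with the replicate 3 term and trended prior, where 1082 of 10290 genes above the limit passed in either direction. The median over the 10 was 0.10, with 0.17 in replicates 1 and 2 and -0.02 in replicate 3. Of the 10, 9 had a higher mean in low sodium, where 4837 of 10290 genes above the limit did. The 1 with a lower mean was Csf1r, at -0.16 ± 0.19. All low-sodium arrays of Csf1r lay below all normal-sodium arrays, and its 2 other probe sets above the limit had the same sign. Of 12 osteoclast markers 10 lay above the limit, with sums of 9062 to 11346 in low sodium and 9389 to 10572 in normal sodium, and Calcr and Itgb3 did not. Itgb3 is also on the receptor list, and Ctsk and Mmp9 are also on the enzyme list. The single gene Car2 made up most of the normal-sodium sums, at 5762, 6168 and 5844, against 562, 515 and 1419 in low sodium (a log2 difference of -2.99 ± 0.43). Of the 10 above the limit 7 had a higher mean in low sodium, where 4837 of 10290 genes above it did. In 8 of the 10 the means of both media lay above it, and 6 of these 8 had a higher mean in low sodium. Oscar passed the limit only through normal sodium. The median over the 12 was 0.62, or 0.23 without the normal-sodium replicate 3 array and 1.09 without the normal-sodium replicate 1 array. With the replicate 3 term and trended prior 5 of the 12 were higher in low sodium (background 3.09% of genes) and 1 was lower (2.92%). Among genes above the limit 1082 of 10290 passed this fit, in either direction. Atp6v0d2 differed by 3.41 ± 0.62 without overlap. Dcstamp differed by 1.52 ± 0.60, Ctsk by 1.15 ± 0.88 and Mmp9 by 1.05 ± 0.46, all with overlap. Nfatc1 differed by -0.23 ± 0.28, Oscar by -0.17 ± 0.40 and Tnfrsf11a by 0.12 ± 0.22, also with overlap. Acp5 differed by 0.70 ± 0.52, with -0.08, 0.004 and 2.17 within replicates 1, 2 and 3. Ocstamp passed the limit only through low sodium, at 370, 318 and 58.5 there, against 85.1, 31.4 and 7.11 in normal sodium, so its difference is not read as a size. Of 10 measured mesenchymal markers 7 were near background, Col1a1, Col3a1, Dcn, Lum, Pdgfra and Pdgfrb among them. Col1a2, Sp7 and Alpl lay above by at most 0.61 on the log2 scale, Alpl only through low sodium. The sum of the 10 mesenchymal markers was 344 to 644 in low sodium and 402 to 533 in normal sodium. The part of the osteoclast markers in the differences of Ecm1 and Gpnmb was not tested.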

How the data were processed

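The authors deposited microarray intensities, 1 linear value for each probe set on each array. Per the submitters' processing notes Partek was used, and no source used here gives the summarisation method. In the deposited intensities the mean without the lowest and highest 2% of values was 500.003 on each array, so the arrays share 1 scale.

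Values were analysed as log2(intensity + 1), which understates changes of low signals with a larger pseudocount and inflates their scatter with a small one. Of 45101 probe sets, 64 controls were left out. The annotation gave 1 gene for 34945, several for 932 and none for 9160, and 34741 were matched to RefSeq gene names through Entrez identifiers. Another probe set, shared by Thbs1 and a second gene, was not used. Low minus normal sodium was fitted with limma 3.58.1 in R 4.3.3 (lmFit, eBayes, two-sided, adjusted p under 0.05 over all probe sets). Genes to name were the 8 members, up to 4 genes with the smallest p per list among those above the limit, the genes called in a list, and the 3 nearest patterns. The members and lists were chosen with earlier results of these data known. The labels do not say that cultures were separate beyond calling them biological replicates. The fit was tested on simulated data.

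Arrays with the same replicate number were taken as pairs. Deviations from the group means correlated at 0.35, 0.33 and 0.51 between arrays of the same number over 22519 probe sets. Replicates 1 and 2 also correlated with each other across the media (up to 0.35). The correlations thus set replicate 3 apart, but they cannot tell which array of replicates 1 and 2 pairs with which. With 3 arrays per medium, the number of arrays limits the precision.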

Additional observations from a re-analysis of the deposited data

How the results depend on the processing

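For low minus normal sodium the limma count over all probe sets, 0, became 1840 with the replicate 3 term and trended prior, 33 with a trended prior alone, 1 with a pseudocount of 16 and 2 with probe sets below the median left out. The member count, 0 of 15, became 3 and 1 under the first pair of these settings. With the replicate number as a block it remained 0 in both counts, and leaving out each array in turn gave 0 for both. For replicate 3 against replicates 1 and 2 the count of 0 became 6796 with a trended prior, 1223 with a pseudocount of 16 and 6228 with probe sets below the median left out. The member count became 1 under the last setting. Leaving out each array gave 0 again, and the replicate block 0. The cause was not tested. Genes near background numbered 3, and 0 against the highest of 3 Bacillus trpn probe sets, a log2 value of 3.68, as a limit.

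The difference of Ecm1 was between 1.23 and 1.29 under 14 alternatives, 2 of which called it. Gpnmb 1448303_at was between 0.33 and 0.58, Gpnmb 1439345_at between 0.64 and 0.88 and Lgals3 between 0.07 and 0.21. Fn1 1426642_at was positive under 3 and negative under 11, at 0.40 without low sodium replicate 3 and -0.47 without low sodium replicate 1. The medians of 7 gene lists kept their sign in 95 of 98 values, and the exceptions were all of the other secreted matrix glycoproteins. In this balanced design the replicate block, the replicate 3 terms and the trended prior alone return the main difference, so no sign could change under them. The 98 values hold no fit of replicate 3 alone. Within that pair the median was -0.0048 for relatives, -0.02 for macrophage markers and -0.26 for mesenchymal markers. It was 0.33 to 0.39 for the others of the 7 lists.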
